A study of Canis lupus familiaris with 22 samples.

Results

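NT5C1B, AQP2, FGF21, CEP126 and FBXO27 are 5 genes whose probes differed widely in the blood of dogs with canine atopic dermatitis (cAD) before therapy compared to healthy dogs (0 vs. ctrl), and they were chosen by that difference, the mean log ratio of cAD patients before therapy minus that of ctrl. The members are all probes for transcripts that carry one of these gene names, where CEP126 stands under its older name KIAA1377. They are 9 of the 43603 probes of the array: 3 for NT5C1B, 3 for AQP2 and 1 for each of the others. For these 5 genes, the 0 vs. ctrl values are therefore a description and were not tested. Of the 9 probes, 8 met the filter for testing, the Cy5 flag on at least 7 arrays. CEP126, FGF21, NT5C1B downstream and AQP2 middle met it only through ctrl, which limits their tests. The values given here are the log ratio of each probe, the signal and the background flag of both dyes, and how far the difference stands on spots at background.

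The series holds 22 two-color Agilent arrays of venous whole blood, 1 per sample. Healthy dogs (ctrl) gave 8 arrays. The cAD patients were 7 dogs, each with an array before allergen-specific immunotherapy (ASIT) and another once therapy had run for 6 months. Cy5 marked the RNA of each dog. A common reference, a pool of blood RNA from 13 other healthy dogs, was labeled with Cy3 and was the same on every array, with no exchange of dyes. All dogs were privately owned animals of various breeds, the patients were sensitized mainly to mites and received subcutaneous injections of allergen extract, and all were adult by the methods, with overlapping age ranges and no age per sample in the labels. The methods name peripheral blood nuclear cells, while the labels name whole blood. The ctrl arrays lay on 2 slides and the arrays of cAD patients on 4 others scanned on other days, so slide, scan day and disease cannot be told apart in any comparison with ctrl.

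The 5 genes have different roles, and none is known mainly as a blood cell gene. NT5C1B encodes a cytosolic nucleotidase that turns AMP into adenosine and is known from testis. AQP2 is the vasopressin-regulated water channel of the kidney collecting duct. FGF21 is a hormone made mainly by the liver, which acts through an FGF receptor with the coreceptor beta-klotho (KLB). CEP126 is a protein of the centrosome and of the base of the cilium. FBXO27 is an F-box protein that gives an SCF ubiquitin ligase its binding to sugar-bearing glycoproteins.

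Each probe is a DNA strand of 60 bases, and its sequence is what the signal of a gene rests on. The leading probe of a gene is the probe with the largest mean difference in 0 vs. ctrl. Where a gene has 3 probes, they are called upstream, middle and downstream in the order of the transcript. The 5 leading probes are shown with the other tested probes of NT5C1B and AQP2, since probes of the same gene gave different ratios. The AQP2 downstream probe was at background on every array, and its sequence is not shown. They are printed 5′ to 3′ in lower case as in the scanner files, with positions on canFam3.1. No letters are capitalized because the whole strand is the measuring element.
NT5C1B upstream, chr17:13867448-13867507, minus strand: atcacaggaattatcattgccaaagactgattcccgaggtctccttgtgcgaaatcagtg
NT5C1B middle (leading), chr17:13860182-13860241, minus strand: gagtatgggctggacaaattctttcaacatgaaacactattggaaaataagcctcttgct
NT5C1B downstream, chr17:13851575-13851634, minus strand: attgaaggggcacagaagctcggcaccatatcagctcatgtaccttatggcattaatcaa
AQP2 upstream, chr27:4750680-4750739, minus strand: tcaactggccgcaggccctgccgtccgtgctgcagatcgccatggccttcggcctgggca
AQP2 middle (leading), chr27:4746332-4747107, minus strand: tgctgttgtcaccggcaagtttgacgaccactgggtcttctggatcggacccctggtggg
FGF21, chr1:107571761-107571820, minus strand: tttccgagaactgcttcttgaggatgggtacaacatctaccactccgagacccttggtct
CEP126, chr5:29570335-29577776, minus strand: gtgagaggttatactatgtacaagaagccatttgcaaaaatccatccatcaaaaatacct
FBXO27, chr1:114126874-114126933, plus strand: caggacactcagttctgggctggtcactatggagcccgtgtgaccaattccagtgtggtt

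The genomic span of the AQP2 middle probe was 776 bases and that of the CEP126 probe 7442 bases, both longer than the 60 bases of the probe, so the bases of these probes are not contiguous in the genome. The other probes span exactly their own length. No annotation of canFam3.1 was used here, so exon and UTR were not assigned. None of the 9 probes shared a stretch of 20 bases with a probe of another gene on the array, on either strand. G and C made up 70.0% of the AQP2 upstream probe and 60% of the AQP2 middle probe, against a median of 43.3% over all probes, of which the middle 90% lay between 35.0% and 56.7%. The CEP126 probe was at 35.0% and the NT5C1B middle probe at 38.3%.

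The arrays of cAD patients were dimmer than those of ctrl. Cy5 was well above background, by the flag of the scanner software, on a median of 87.8% of spots in the 8 ctrl arrays, with a range of 83.7% to 92.2%. The 7 arrays before ASIT had a median of 62.6%, ranging from 53.3% to 87.4%, and the 7 later ones 61.7%, ranging from 57.2% to 81.6%. For Cy3, which was the same RNA throughout, the medians were 81.6%, 58.0% and 56.8%. Markers of leukocytes, neutrophils, monocytes, T cells and erythroid cells had Cy5 well above background on every array for all of their 5, 8, 6, 6 and 5 measured genes. So had both eosinophil markers and 4 of the 5 platelet markers, while for B cells it was 5 of 6 on the arrays before ASIT and 4 of 6 after ASIT. Of the hepatocyte markers 1 of 7 (FGA), of the kidney tubule markers 3 of 7 and of the male germ cell markers 1 of 5 were above background on all 7 arrays before ASIT. On all 8 ctrl arrays it was 4 of 7, 7 of 7 and 4 of 5. A Cy5 flag in ctrl was thus common also among markers of tissues other than blood. All 5 erythroid markers had higher mean ratios before ASIT than in ctrl (by a median of 0.49 on the log2 scale), while all 4 tested platelet markers had lower ones (by a median of -0.48), and none of either list passed the test at an adjusted p under 0.05 in limma. Their part in the results below was not tested.

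The NT5C1B middle probe had the highest ratios of cAD patients over ctrl. On the log2 scale, where 0 means equal Cy5 and Cy3, its ratio in ctrl ran from 0.32 over a median of 0.51 to 0.93. Before ASIT it ran from 0.75 over 2.74 to 3.43, and after ASIT from 0.74 over 2.19 to 3.24. Dog 1 had the lowest ratio of its group both before and after ASIT, and its 2 values lay within the range of ctrl. The other 6 dogs before ASIT, at 2.31 or higher, lay above every ctrl array. Group means were 0.58 ± 0.20 in ctrl (SD, n = 8), 2.64 ± 0.93 before ASIT (n = 7) and 1.96 ± 0.82 after ASIT (n = 7), so that 0 vs. ctrl was 2.07.

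The signals behind this ratio were lower before ASIT, in scanner units. The Cy5 signal of the dogs at the NT5C1B middle probe, after the background subtraction of the scanner software, ran from 57.7 over a median of 62.2 to 98.7 scanner units in ctrl. It ran from 17.0 over 21.5 to 71.0 units before ASIT and from 18.8 over 42.6 to 57.2 after ASIT, so that 6 of 7 arrays before ASIT lay below all 8 ctrl arrays. As a percentage of the median signal of each array over spots above background in both dyes on every array, Cy5 ran from 16.2% over 26.0% to 41.9% in ctrl and from 6.69% over 14.8% to 31.6% before ASIT, and these ranges overlapped. The Cy3 signal of the common reference at the same probe ran from 13.2 to 21.6 units in ctrl, from 0.721 to 13.3 before ASIT and from 2.64 to 18.6 after ASIT. Cy5 was well above background on all 22 arrays. Cy3 was well above background on all 8 ctrl arrays, but only on that of dog 1 before ASIT and on those of dogs 1 and 2 after ASIT. On 3 of the 7 arrays before ASIT the software had replaced the Cy3 signal by a surrogate, the value it puts in where a signal is too near the background to be measured.

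The log2 ratios of the arrays on which both dyes were well above background were 0.75 before ASIT (1 array) and 0.74 and 1.19 after ASIT (2 arrays), against 0.58 in ctrl (mean, n = 8). The remaining 11 arrays of cAD patients had Cy3 at background and gave 1.76 or more. The patient arrays with both dyes above background all lay on the same slide, which also held the array of dog 2 before ASIT (2.73). Background status thus largely went with slide and scan day. The split of the difference by dye rests on the same spots and is not separate support. Here and for the other probes it used the processed signals of the scanner software, surrogates included. Its size is therefore not a measured one where a dye was at background. With each array centered on its median over the 20091 spots that were above background in both dyes on every array, the 0 vs. ctrl difference was -0.51 in mean log2 Cy5 and -2.57 in mean log2 Cy3.

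**Figure D1:**
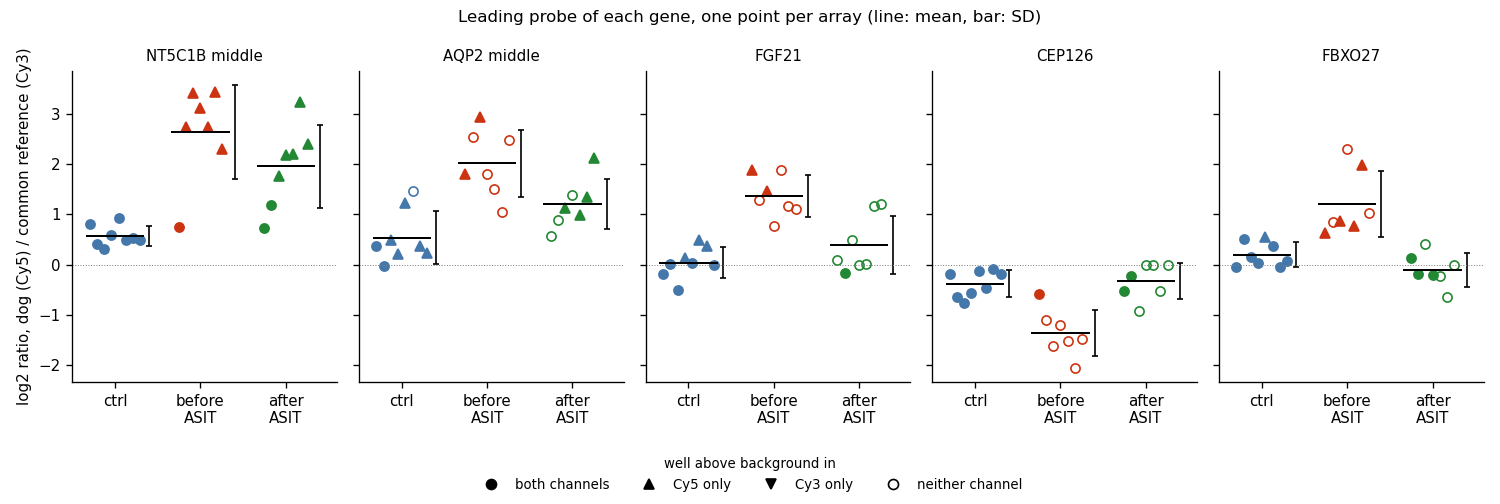
Log2 ratio of the dog (Cy5) to the common reference (Cy3) at the leading probe of each gene, with 1 point per array in ctrl (n = 8), before ASIT (n = 7) and after ASIT (n = 7), the mean as a line and the SD as a bar. The symbol gives which dyes were well above background. For NT5C1B the filled circles, with both dyes above background, lie between 0.32 and 1.19 in all 3 groups, and the higher values are triangles, with Cy5 alone above background.

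The other 2 NT5C1B probes did not follow the middle probe. At the upstream probe, group means were 0.31 ± 0.44 in ctrl, 0.49 ± 0.53 before ASIT and 0.46 ± 0.40 after ASIT, and the groups overlapped. At the downstream probe they were 0.04 ± 0.21, -0.69 ± 0.75 and 0.24 ± 0.42, so that 0 vs. ctrl was -0.73 where the middle probe gave 2.07. The downstream probe had both dyes well above background on all 8 ctrl arrays, on the arrays of dogs 1 and 2 before and after ASIT, and on no other array. On those 2 arrays before ASIT its ratios were -0.14 and 0.18, within the ctrl range of -0.17 to 0.38. On the 5 arrays at background its ratio was 0.00 or lower, down to -1.78, with the Cy5 signal between -1.42 and 3.73 units.

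The AQP2 probes differed in brightness as well as in ratio. The AQP2 upstream probe was well above background in both dyes on all 22 arrays, with a median Cy5 signal of 436 units in ctrl, 180 before ASIT and 623 after ASIT. Its ratio ran from -1.43 to 1.23 in ctrl, from -1.2 to 1.17 before ASIT and from -1.43 to 1.61 after ASIT, so the groups covered nearly the same range. Group means were -0.07 ± 0.82, 0.23 ± 0.90 and 0.66 ± 1.04, and 0 vs. ctrl was 0.30, smaller than the SD of any group.

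The AQP2 middle probe, the leading one, was at the edge of detection. Its ratio ran from -0.02 over a median of 0.37 to 1.46 in ctrl, from 1.05 over 1.81 to 2.94 before ASIT and from 0.57 over 1.12 to 2.13 after ASIT, with means of 0.54 ± 0.52, 2.02 ± 0.66 and 1.2 ± 0.49. The values before ASIT overlapped with ctrl, since 2 ctrl arrays gave 1.22 and 1.46. The Cy5 flag was set on 7 of 8 ctrl arrays, on 2 of 7 arrays of dogs before ASIT and on 4 of 7 thereafter. Cy3 was above background on 2 ctrl arrays and on none of the 14 arrays of cAD patients. All 7 arrays before ASIT carried a Cy3 surrogate, and the Cy3 signal there was between -1.01 and 1.55 units. The Cy5 signal was 13.1 to 35.2 units in ctrl and 3.33 to 20.1 before ASIT, but scaled to each array its median was 7.86% in ctrl and 7.85% before ASIT. In the AQP2 middle probe, mean 0 vs. ctrl differences were -0.67 in log2 Cy5 and -2.14 in log2 Cy3. The error that the scanner software gives a single log2 ratio had a median of 0.98 before ASIT and 0.46 in ctrl. No array of cAD patients had both dyes above background, so no ratio free of background spots can be given. The AQP2 downstream probe had neither dye above background on any array and was not tested. Its ratio was exactly 0 on 2, 5 and 4 arrays of the 3 groups.

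**Figure D2:**
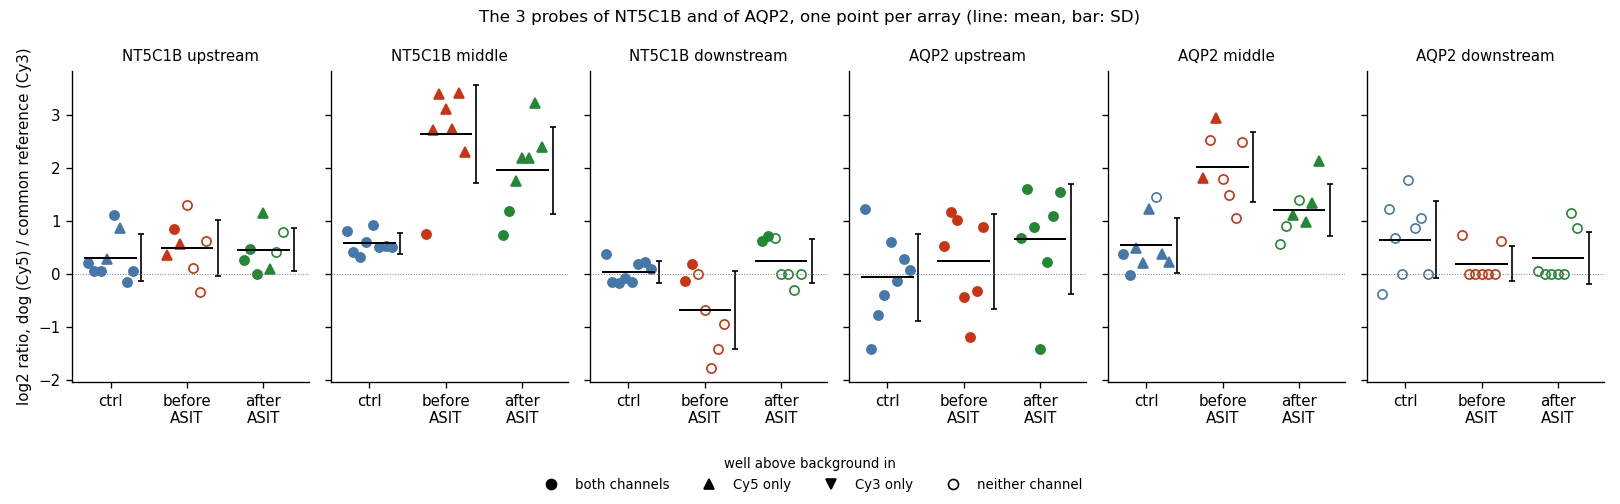
Log2 ratio at the 3 probes of NT5C1B and the 3 probes of AQP2, with 1 point per array, the mean as a line and the SD as a bar, in ctrl, before ASIT and after ASIT. The symbol gives which dyes were well above background. The other NT5C1B probes and AQP2 upstream do not show the pattern of the leading probe. From upstream to downstream, 0 vs. ctrl is 0.19, 2.07 and -0.73 for NT5C1B and 0.30, 1.48 and -0.46 for AQP2. AQP2 downstream was at background in both dyes on every array and could not show a pattern.

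FGF21 was measured by a single probe. Its ratio ran from -0.51 over a median of 0.03 to 0.49 in ctrl, from 0.78 over 1.29 to 1.89 before ASIT and from -0.17 over 0.09 to 1.21 after ASIT. All 7 dogs before ASIT lay above all 8 ctrl dogs. After ASIT, 5 of the 7 dogs were at 0.49 or lower and dogs 6 and 7 at 1.17 and 1.21. Means were 0.04 ± 0.31, 1.37 ± 0.41 and 0.40 ± 0.58, and 0 vs. ctrl was 1.32. The Cy5 flag was set in 8 of 8 ctrl dogs but in 2 of 7 dogs before ASIT (dogs 1 and 3) and 1 of 7 after ASIT (dog 2). Cy3 was above background on 5 ctrl arrays, none before ASIT and 1 after ASIT. The Cy5 signal was 23.5 to 34.2 units in ctrl and 5.22 to 21.0 before ASIT, in the direction opposite to the ratio. Scaled to each array it was 8.36% to 13.9% in ctrl and 2.26% to 8.46% before ASIT, and these ranges overlapped slightly. Centered on each array, the 0 vs. ctrl difference was -0.96 in mean log2 Cy5 and -2.28 in mean log2 Cy3.

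CEP126 was the only leading probe whose mean ratio was lower before ASIT than in ctrl. Its ratio ran from -0.76 over a median of -0.33 to -0.08 in ctrl, from -2.05 over -1.47 to -0.59 before ASIT and from -0.92 over -0.23 to 0.00 after ASIT. Only dog 1, at -0.59, lay within the ctrl range before ASIT. Means were -0.38 ± 0.27, -1.36 ± 0.46 and -0.31 ± 0.35, and 0 vs. ctrl was -0.98. Both dyes were well above background on all 8 ctrl arrays, on the array of dog 1 before ASIT and on those of dogs 1 and 2 after ASIT, and neither dye was above background on the other 11. On 5 of the 7 arrays before ASIT the Cy5 signal was a surrogate, with values of the background-subtracted signal below 0. After ASIT, 3 of the ratios were exactly 0 for lack of signal in both dyes. Before ASIT the median Cy5 signal was closer to background than the median Cy3 signal (-0.592 and 5.63 units), unlike in ctrl (30.2 and 15.4 units), and the 0 vs. ctrl difference was -2.58 in mean log2 Cy5 and -1.59 in mean log2 Cy3.

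FBXO27 was also measured by a single probe. Its ratio ran from -0.05 over a median of 0.11 to 0.56 in ctrl, from 0.64 over 0.87 to 2.30 before ASIT and from -0.65 over -0.18 to 0.41 after ASIT. Every dog before ASIT lay above every ctrl dog and above every dog after ASIT. The separation from ctrl was narrow, since 4 of the 7 dogs before ASIT were between 0.64 and 0.87 and the highest ctrl dog was at 0.56. In the deposited series matrix, whose ctrl values differ from those of the scanner, 3 ctrl dogs were at 0.67, 0.92 and 1.32 and the groups overlapped. Means were 0.20 ± 0.25, 1.21 ± 0.66 and -0.10 ± 0.33, and 0 vs. ctrl was 1.00. The Cy5 flag was set in 8 of 8 ctrl dogs, 4 of 7 dogs before ASIT and 3 of 7 dogs after ASIT, and the Cy3 flag in 7, 0 and 3. The 0 vs. ctrl difference was -0.90 in mean log2 Cy5 and -1.90 in mean log2 Cy3.

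**Figure D3:**
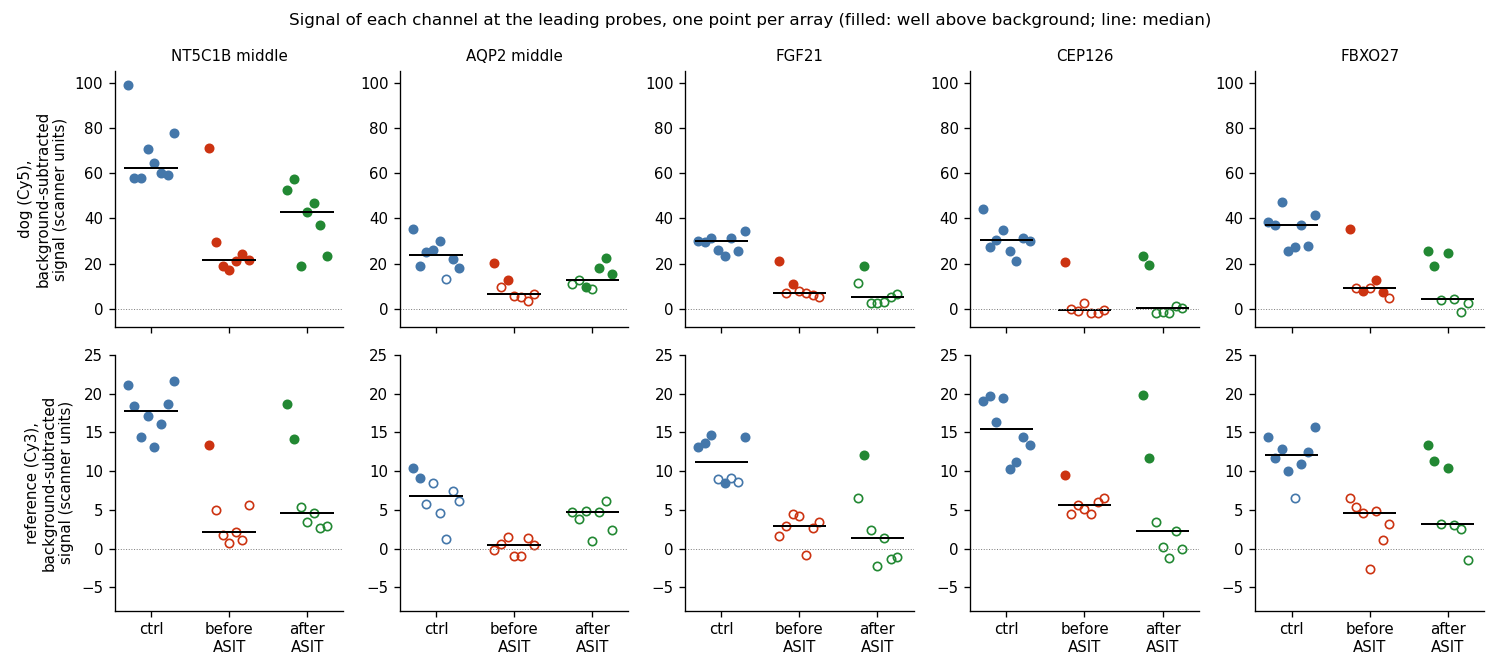
Background-subtracted signal of the dog (Cy5, upper row) and of the common reference (Cy3, lower row) at the leading probes, in scanner units, with 1 point per array and the median as a line, for ctrl, before ASIT and after ASIT. Filled points were well above background. The medians of both dyes are lower before ASIT than in ctrl at all 5 probes, in scanner units. Scaled to each array, the Cy5 median of AQP2 middle is 7.86% in ctrl and 7.85% before ASIT.

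All 5 leading probes had a mean 0 vs. ctrl difference of at least 0.5 in size, as did 14% of the 38286 tested probes, and the rule that chose the genes used this contrast. FGF21 and FBXO27 showed no overlap between dogs before ASIT and ctrl in the scanner values, of which FGF21 alone kept it in the series matrix, and 0.0836% of tested probes were higher before ASIT with no overlap. Large differences were more frequent among probes at background. The classes use flags of the arrays before ASIT, which are 1 side of this difference, so class and difference are not independent. Of the 21012 tested probes with both dyes above background on all 7 arrays before ASIT, 0.300% differed by at least 1 in 0 vs. ctrl. Of the 4381 tested probes with both dyes above background on none of these arrays, among them AQP2 middle, FGF21 and FBXO27, 3.99% did so. NT5C1B middle and CEP126 had 1 such array and belonged to the 12893 tested probes with 1 to 6 of them, of which 4.10% did so.

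How far the 0 vs. ctrl difference of the leading probes rests on background spots was also measured by leaving such spots out. Without spots whose Cy5 was at background, AQP2 came to 1.96, FGF21 to 1.63 and FBXO27 to 0.86, while CEP126 came to -0.22. These values rest on 2, 2, 4 and 1 arrays before ASIT. Cy3 was at background on all of those kept for AQP2, FGF21 and FBXO27. NT5C1B stayed at 2.07 by construction, since its Cy5 was above background on all 22 arrays and no spot was left out. Without spots that lacked either dye above background, NT5C1B came to 0.17 and CEP126 to -0.22, each with 1 array before ASIT, and AQP2, FGF21 and FBXO27 had no array left before ASIT. With normexp background correction, an offset of 50 units added to both dyes, and loess, all 5 lay between -0.06 and 0.12. The offset exceeds every background-subtracted Cy3 signal at these probes, so small ratios at dim spots follow from its construction. The Cy5 dye taken alone, with the same offset and quantile normalization, gave -0.05 to 0.08. The offset also exceeds every background-subtracted Cy5 signal at the leading probes other than NT5C1B middle. At NT5C1B middle the Cy5 signal in ctrl was 57.7 to 98.7 units, above the offset. Without the offset, the centered Cy5 differences given above ran from -2.58 to -0.51. They include surrogates and spots at background, and their size was not measured there. The -2.58 of CEP126 rests on Cy5 surrogates on 5 of 7 arrays before ASIT.

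**Figure D4:**
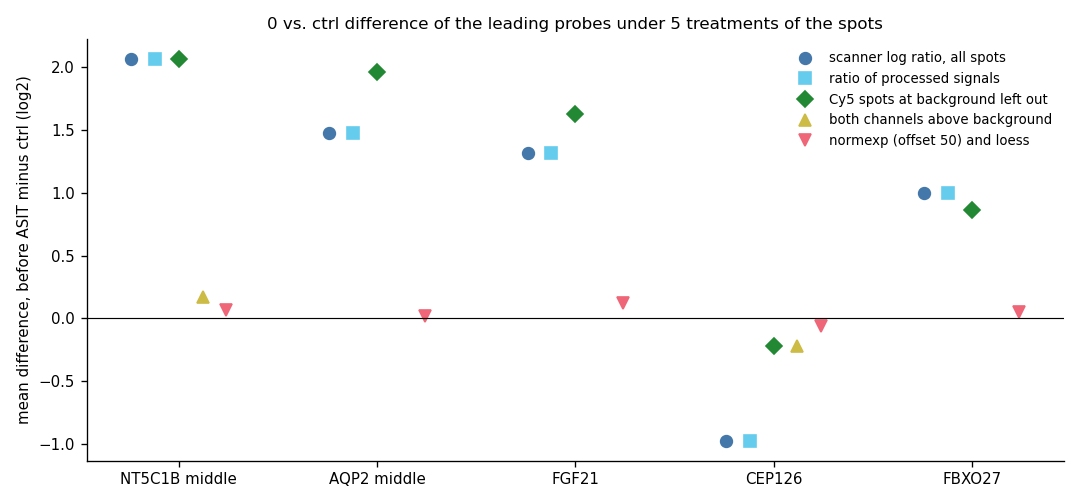
Mean difference before ASIT minus ctrl (log2) of the 5 leading probes under 5 treatments of the spots, with 1 symbol per treatment. With the scanner log ratios the differences lie between -0.98 and 2.07, and with both dyes above background or with normexp they lie between -0.22 and 0.17, where the offset of normexp makes small values by construction. A missing symbol means that no array before ASIT was left.

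The comparison 6 months vs. ctrl asks whether the patients still differed from healthy dogs after therapy. It used arrays of cAD patients that did not enter the choice of the genes, but the same ctrl arrays. None of the 8 tested member probes passed (limma, adjusted p under 0.05), as was the case for 0% of the 38286 tested probes, and the one-way test of the methods, followed by Tukey's, called none either. Since the ctrl arrays entered the choice and the dogs are those of the arrays before ASIT, a low p is favored in advance. The following count is therefore given without a reading. An unadjusted p under 0.05 was reached by 2 of the 8, against 7.20% of all tested probes. They were NT5C1B middle, with a difference of 1.38 (SE 0.34, adjusted p = 0.52), and AQP2 middle, with 0.66 (SE 0.28, adjusted p = 0.681). FGF21 differed by 0.36 (SE 0.22), CEP126 by 0.06 (SE 0.19) and FBXO27 by -0.31 (SE 0.23). The other tested probes of NT5C1B and AQP2 differed by 0.15 to 0.72, and the AQP2 downstream probe, which was not tested, by -0.35.

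The ratios after ASIT can also be set against 0, the level of the common reference, whose mean and sign-flip test use none of the arrays that chose the genes. The SE and p of limma do use them, since its spread is estimated over all 3 groups. In this comparison limma called 6.83% of the tested probes, and 2 of the 8 member probes. NT5C1B middle stood at 1.96 (SE 0.25, adjusted p = 0.000127) and AQP2 middle at 1.2 (SE 0.20, adjusted p = 0.00187). All 7 dogs were above 0 at both probes, and the exact two-sided sign-flip permutation test gave p = 0.0156 for each, the smallest that 7 dogs allow. Positive signs were favored in advance, since earlier arrays of the same dogs chose the genes and no dyes were exchanged. Cy3 was at background on 5 of the 7 arrays after ASIT for NT5C1B and on 7 of 7 for AQP2. Nothing is therefore read from the sign-flip p. The mean of the 2 NT5C1B arrays with both dyes above background was 0.97. With only such spots kept, NT5C1B middle still passed in limma (adjusted p = 0.0232), and AQP2 middle could not be fitted. With normexp and loess both calls were lost (0.17, adjusted p = 0.236, and 0.04, adjusted p = 0.656). The ctrl mean against the same reference was 0.58 for NT5C1B and 0.54 for AQP2. FGF21 (0.40, adjusted p = 0.122), CEP126 (-0.31, adjusted p = 0.151) and FBXO27 (-0.10, adjusted p = 0.71) did not pass in limma, but CEP126 passed with the ratio of processed signals (-0.45, adjusted p = 0.0433).

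In 0 vs. 6 months, the comparison within the patients, the arrays before ASIT had entered the choice of the genes, so differences in the same direction are in part fixed by that choice. No member probe passed (limma, 8 tested), as was the case for 0% of all tested probes, and the methods' one-way test called none. An unadjusted p under 0.05 was reached by 5 of the 8, a count that the choice favors and from which nothing is read. In the main fit, which did not pair the dogs, FBXO27 was higher before ASIT by 1.31 (SE 0.23, adjusted p = 0.0949). It was higher in 7 of 7 dogs and without overlap, as were 0.00522% of tested probes. Limma with the dog as a block gave an adjusted p of 0.702 for FBXO27 and for CEP126. CEP126 differed by -1.05 (SE 0.20, adjusted p = 0.0949) and was lower before ASIT in 7 of 7 dogs. Its Cy5 was a surrogate on 5 of 7 arrays before ASIT, and 3 of its ratios after ASIT were exactly 0. FGF21 differed by 0.97 (SE 0.23, adjusted p = 0.197) and was higher before ASIT in 5 of 7 dogs. AQP2 middle differed by 0.82 (SE 0.29, adjusted p = 0.558) and NT5C1B middle by 0.68 (SE 0.35, adjusted p = 0.869), each higher before ASIT in 6 of 7 dogs. The NT5C1B downstream probe was lower before ASIT in 7 of 7 dogs, by a mean of -0.93 (SE 0.26, adjusted p = 0.328), but in 4 of these dogs the ratio of either array was exactly 0, with surrogates in both dyes.

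For CEP126 and FBXO27 the side of the threshold depended on single arrays. Since the arrays before ASIT chose these genes, a pass in that direction is favored in advance and is given only as a limit of the count of 0. Both were under an adjusted p of 0.05 in limma without dog 3 after ASIT (differences of -1.15 and 1.39) and without dog 1 before ASIT (-1.17 and 1.4), and FBXO27 also without dog 2 before ASIT (1.37). The calls over all tested probes then numbered 94, 103 and 19. Dog 1 gave the only CEP126 array before ASIT with both dyes above background, so that pass of CEP126 leaves out its only such spot before ASIT. Only 2 slides held arrays of both times, the first with 2 before and 2 after ASIT and the second with 2 and 1. Within them the difference was 0.77 and 1.51 for NT5C1B middle, 1.44 and 1.25 for AQP2 middle, 1.63 and 0.63 for FGF21, -0.47 and -0.48 for CEP126, and 0.76 and 1.17 for FBXO27. A fit that held the slide fixed gave 1.07, 1.36, 1.23, -0.47 and 0.93, and none passed.

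**Figure D5:**
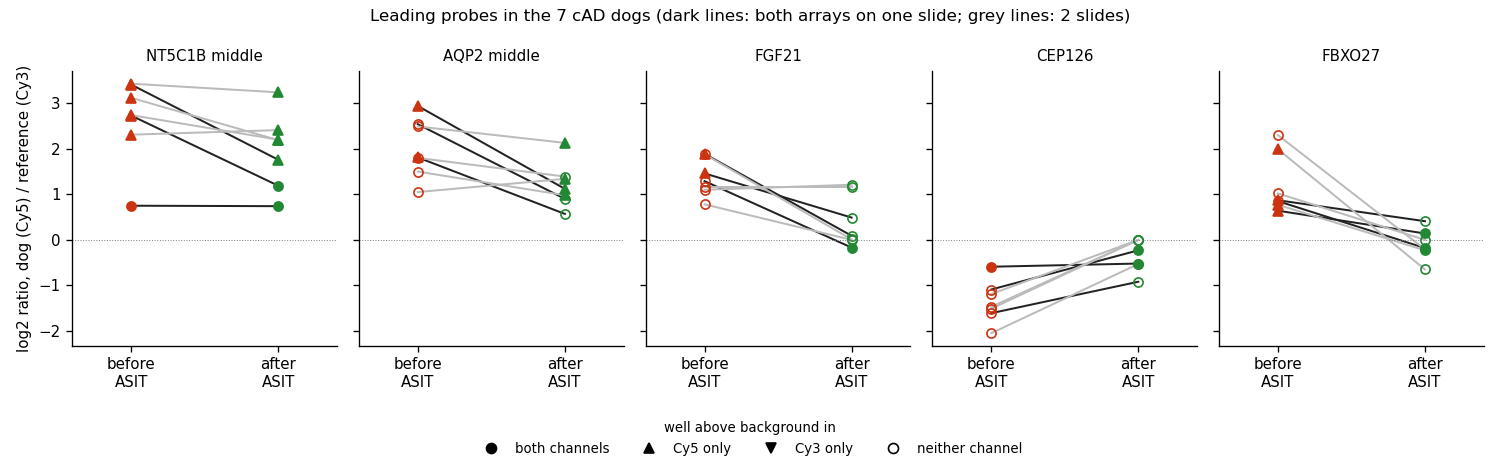
Log2 ratio at the 5 leading probes in each of the 7 cAD dogs before and after ASIT, with a line per dog. Dark lines are dogs 1 to 3, with both arrays on the same slide, and grey lines are dogs with arrays on 2 slides. CEP126 is lower and FBXO27 higher before ASIT in 7 of 7 dogs, and 3 of the CEP126 points after ASIT are at exactly 0.

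The ratios most like each leading probe over the 22 arrays, by Pearson's r among 20215 probes, are given as a description. Arrays of a group share slides and brightness, and the r of deviations from group means is given beside it. For NT5C1B middle they were CNKSR2 (r = 0.86, 0.74 within groups), COL5A3 (0.85, 0.72) and PDGFRB (0.82, 0.62). Those most like AQP2 middle were TSPO2 (0.77, 0.62) and SNX12 (0.77, 0.50), and those most like FGF21 were HTR6 (0.76, 0.50), FAM73B (0.71, 0.41) and VSTM2L (0.70, 0.39). CEP126 had the closest ones, NXPE4 (0.93, 0.84), TIMD4 (0.92, 0.82) and C8H14orf105 (0.88, 0.69). For FBXO27 they were ZNF787 (0.78, 0.76), SELV (0.77, 0.44) and JUP (0.77, 0.66). All 14 of these probes had Cy3 at background on at least 3 of the 7 arrays before ASIT, and the 3 most like CEP126 had Cy5 above background on 1 of these arrays each.

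The other genes of the members' pathways showed no change that passed in any of the 3 comparisons. Of 110 listed genes, 94 were tested, each by its brightest probe, and limma called 0 in 0 vs. ctrl, where 0.0418% of all tested probes were called. The count was also 0 in the comparisons 6 months vs. ctrl and 0 vs. 6 months. An unadjusted p under 0.05 was reached by 9, 7 and 4 of them, against 11.7%, 7.20% and 5.96% of all tested probes, and the methods' one-way test called none.

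Of the 25 tested genes of nucleotide and adenosine metabolism, 12 had a higher mean in 0 vs. ctrl, with a median difference of -0.03 against -0.02 over all tested probes. PNP, the purine nucleoside phosphorylase and the brightest of them, differed by -0.24 (adjusted p = 0.555). The largest differences were 0.41 for AMPD1, an AMP deaminase (adjusted p = 0.757), and -0.55 for NT5M, the mitochondrial nucleotidase (adjusted p = 0.332). In 0 vs. 6 months they were 0.45 for the adenosine receptor ADORA2B and -0.42 for the nucleoside transporter SLC29A2, both with an adjusted p of 0.934.

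Of the 14 tested genes of aquaporins and vasopressin signaling, 5 had a higher mean in 0 vs. ctrl, with a median of -0.10. AQP5, the brightest, differed by -0.09 (adjusted p = 0.917). The largest differences were 0.47 for MIP, the lens aquaporin (adjusted p = 0.544), and -0.98 for AQP3, which also passes glycerol (adjusted p = 0.338). Both were also the extremes in 0 vs. 6 months, with 0.14 and -0.67 (adjusted p = 0.95 and 0.929). The list around FGF21 held endocrine FGFs, their receptors and downstream genes, and also the paracrine factors FGF1, FGF2, FGF7 and FGF9. Of its 17 tested genes, 7 had a higher mean in 0 vs. ctrl, with a median of -0.16. The transcription factor ATF4, the brightest, differed by 0.06 (adjusted p = 0.915). The largest differences were 0.48 for the receptor FGFR4 (adjusted p = 0.709) and -1.33 for the paracrine growth factor FGF7 (adjusted p = 0.115), the latter with Cy5 above background on 1 of 7 arrays before ASIT. In 0 vs. 6 months they were 0.20 for CPT1A, an enzyme of fatty acid oxidation (adjusted p = 0.934), and -0.88 for KLB (adjusted p = 0.358).

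Of the 18 tested genes of centriolar satellites and cilia, 13 had a higher mean in 0 vs. ctrl, with a median of 0.13. DCTN1, the brightest, differed by -0.26 (adjusted p = 0.512). The largest differences were 0.81 for CEP97 (adjusted p = 0.467) and -0.28 for the centriole kinase PLK4 (adjusted p = 0.856). In 0 vs. 6 months they were 0.98 for the centrin CETN3 (adjusted p = 0.404) and -0.42 for PLK4 (adjusted p = 0.934). Of the 20 tested genes around FBXO27 and the SCF ligase, 13 had a higher mean in 0 vs. ctrl, with a median of 0.05. LAMP1, a lysosomal glycoprotein and the brightest, differed by 0.02 (adjusted p = 0.971). The largest differences were 0.50 for the ring subunit RBX1 (adjusted p = 0.549) and -0.33 for the F-box protein SKP2 (adjusted p = 0.58). In 0 vs. 6 months they were 0.36 for NGLY1, which removes sugar chains from glycoproteins (adjusted p = 0.934), and -0.40 for SKP2 (adjusted p = 0.881).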

How the data were processed

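The 22 arrays measured blood RNA of 8 ctrl dogs and, at both times, of 7 cAD patients. The authors used Agilent Feature Extraction (10.7.3.1 per the labels, 10.10.1.1 per the file headers) to read the intensity of each spot and its local background, subtract background, apply Lowess normalization and write the deposited log10 ratio (Cy5 over Cy3). This software also wrote the flags for signal well above background and for surrogates. The deposited series matrix holds log10 ratios that differ from the scanner values on ctrl arrays.

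All ratios are given here on the log2 scale. Spots of control probes were dropped, as were 208 that the software marked as outliers, and the mean was taken per probe, giving 43603 probes. Tested were the 38286 whose Cy5 flag was set on 7 or more arrays, in 1 fit of 3 groups with limma 3.58.1 (R 4.3.3) and Benjamini-Hochberg adjustment, called under 0.05. Each sample is a separate animal or time point. The number of arrays and the signal over background limit the precision.

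The 5 genes were given by name. The gene lists and tests were chosen with earlier results of these data known, as were the rules for the probes named: every member probe and, per pathway list, the brightest gene, the genes with the largest differences and any called. The 3 genes most like each leading probe are named by Pearson's r, except 1 that is not reported here. Pairs of arrays come from the dog numbers in the labels, and the main comparison used no block. The alternatives were normexp (offset 50) with loess, the series matrix, the ratio of processed signals, Cy5 alone (same normexp, then quantile), no filter, a strict filter (19946 probes with both dyes above background on all arrays), Cy5 spots at background left out, the slide as a random block, the methods' one-way test, leaving out each array, the dog as a block and the dogs with both arrays on 1 slide. Leaving out spots without both dyes above background and the slide as a fixed block were added after seeing the data. On simulated data with 200 of 38286 probes changed by 2 on the log2 scale, limma recovered 188 in 6 months vs. ctrl (12 false calls) and 186 in 0 vs. 6 months (3 false calls). All 5 gene symbols are in the RefSeq table of a later assembly, used for names only.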

Additional observations from a re-analysis of the deposited data

Results flagged for a closer look

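Of 27 sets of ratios (9 probes in 3 groups), 1 held an array far from the others of its group, by Dixon's criterion, which chance meets in about 1 of 20 sets. At the NT5C1B middle probe, dog 1 before ASIT had a log2 ratio of 0.75, and the next lowest dog had 2.31. It was also the only array before ASIT with Cy3 well above background at this probe. Without it, 0 vs. ctrl of this probe came to 2.38.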

How the results depend on the processing

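No member probe passed in 6 months vs. ctrl under any alternative run. In 0 vs. 6 months none passed except when single arrays were left out (0 to 2 of 8 called; FBXO27 and CEP126 only). Of the members against the common reference, 2 were called, 2 to 3 with single arrays left out, 3 with Cy5 spots at background left out, 3 with the ratio of processed signals (CEP126 added), 0 with normexp and loess, and 0 with the strict filter, which kept 1 of the 8 probes. Over all tested probes, that comparison had 2615 calls, 734 (without dog 6 after ASIT) to 6334 (without dog 4 after ASIT) with single arrays left out, 494 with the slide as a random block and 8 with normexp and loess. All 5 leading probes differed by at least 0.5 in 0 vs. ctrl, also without any single array. That count was 0 with normexp and loess, 0 with Cy5 alone, and 0 of the 2 that could be fitted with spots lacking either dye above background left out. No leading probe was in the strict filter. In the pathway lists, Cy5 alone called 6 of 94 genes in 0 vs. ctrl and 2 in 6 months vs. ctrl, where it called 8.92% and 2.25% of all tested probes, and leaving out single arrays gave 0 to 1 in 0 vs. ctrl. The dog as a replicate block gave 0 called member probes and 0 called pathway genes in 0 vs. 6 months, as did the dogs with both arrays on 1 slide (replicate block), so the pairing changed no call.

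Signs turned, with none of these values passing, for NT5C1B middle (6 months vs. ctrl -0.01 with normexp and loess; 0 vs. 6 months -0.03 with Cy5 alone and -0.22 with both dyes above background), and for AQP2 middle (-0.05 and -0.06 in the first 2 cases). They also turned for FGF21 (-0.22 in 6 months vs. ctrl and -0.17 against the reference with Cy5 spots at background left out) and FBXO27 (0.01 in 6 months vs. ctrl with Cy5 alone). For CEP126, 6 months vs. ctrl was -0.03 with Cy5 alone, -0.07 with the ratio of processed signals, -0.12 with the series matrix, -0.01 with the slide as a random block, and -0.000739 without spots at background in Cy5 or in either dye. The cause was not tested, apart from the fewer arrays left where spots were left out.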
